A study of Homo sapiens with 3 samples.

Results

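Stathmins, neuronal tubulins and growth cone proteins were followed as 10 genes: STMN1, STMN2, STMN3, STMN4, TUBB3, TUBA1A, MAP1B, GAP43, BASP1 and NSG2. They were chosen by name from the 32738 gene rows of the deposited tables, with earlier results of these data known. They were read in single Kelly cells, a long-established human neuroblastoma line in which MYCN is amplified and the kinase ALK is mutated. The 3 libraries, 1 for each response to the ALK inhibitor TAE684, were droplet single-cell RNA libraries of the 10x Genomics 3' v2 chemistry. Sensitive cells grew with the vehicle DMSO, intermediate resistant cells with TAE684 at 500 nM and fully resistant cells with TAE684 at 1 µM. All cells were the same line in the same serum-containing medium, and the labels name no further genetic change. With 1 library per group there is no replicate check and no test, and resistance, the dose in the medium and differences between cultures cannot be told apart.

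Microtubules are polymers of alpha and beta tubulin, and stathmins bind free tubulin dimers and promote the loss of subunits from microtubule ends. STMN1 is found in many dividing cells, whereas STMN2, STMN3 and STMN4 are neuronal relatives that attach to membranes. TUBB3 and TUBA1A are a beta and an alpha tubulin of developing neurons, and MAP1B is a microtubule-associated protein of growing axons. GAP43 and BASP1 are membrane-bound substrates of protein kinase C at the growth cone, the moving tip of an axon. NSG2 is a neuronal protein of endosomes that has been linked to receptor trafficking. In neuroblastoma, a tumour of the sympathetic lineage, such genes are commonly read as marks of neuronal identity.

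Cells were barcodes with at least 5000 UMIs (distinct RNA molecules), at least 500 genes and at most 20% of UMIs from mitochondrially encoded genes. The rule left 5415 sensitive, 6288 intermediate resistant and 6331 fully resistant cells, holding 95119772, 102449567 and 106163582 UMIs. The median cell had between 15660.5 and 16014 UMIs in all 3 libraries, so depth was close. Mitochondrially encoded genes took 5.57%, 5.13% and 6.57% of UMIs and ribosomal protein genes took 36.6%, 39.5% and 33.6%, in the order sensitive, intermediate resistant and fully resistant, which is used throughout. Pairs of libraries shared 38 to 62 barcodes, against 46.2 to 54.0 from independent draws. Levels are given as CPM (UMIs of the gene per 1000000 UMIs in cells). As a check of the line, MYCN stood at 1242, 413 and 446 CPM and ALK at 5.44, 5.12 and 1.25 CPM. All 7 neuroblast markers read were present in each library, with summed levels of 1390 CPM, 2409 CPM and 1747 CPM. Markers of fibroblasts summed to at most 19.8 CPM, of immune cells to 2.58 CPM, of endothelium to 0.763 CPM and of erythroid cells to 0.0283 CPM. The glial regulator SOX10 had 0, 0 and 2 UMIs.

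Fully resistant cells carried far less NSG2 RNA than sensitive cells, less STMN2 and GAP43 RNA, and more BASP1 and STMN3 RNA. STMN1, TUBA1A and MAP1B differed by less than 2-fold. The intermediate resistant library stood close to the sensitive one for most of these genes, with GAP43 and NSG2 as the members farthest below it among those at 20 CPM or more. The genes named for the growth cone thus did not move as a block. Levels below are UMIs summed over the cells of a library, as CPM, and each bracket is an exact Poisson 95% interval that covers counting error only.

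**Figure D1:**
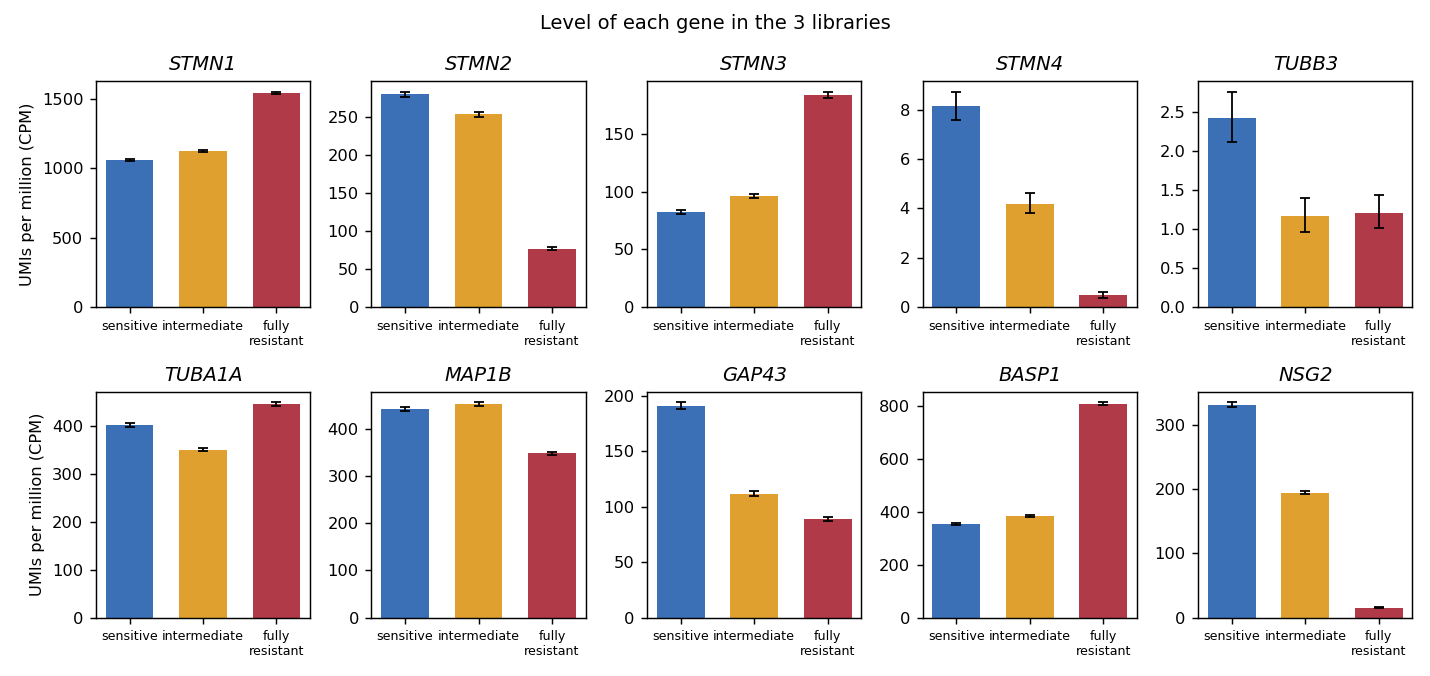
Bars give the level in called cells (CPM, each panel with its own axis from 0) for the 10 genes in the sensitive, intermediate resistant and fully resistant library, and black lines are exact Poisson 95% intervals of a single library. NSG2 ended at 15.7 CPM and STMN4 at 0.471 CPM in fully resistant cells, while BASP1 reached 808 CPM there.

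Among the stathmins, STMN1 (ENSG00000117632, chromosome 1) had 1060 CPM (1053 to 1066) in sensitive, 1128 (1122 to 1135) in intermediate resistant and 1545 (1538 to 1553) in fully resistant cells. STMN2 (ENSG00000104435, chromosome 8), the stathmin of regrowing axons, had 280.3 CPM (276.9 to 283.7), 253.9 (250.8 to 257.0) and 76.9 (75.3 to 78.6). STMN1 was thus highest and STMN2 lowest in the fully resistant library. STMN3 (ENSG00000197457, chromosome 20) had 82.1 CPM (80.3 to 84.0), 96.5 (94.6 to 98.4) and 184 (182 to 187). STMN4 (ENSG00000015592, chromosome 8) was scarce, with 773, 429 and 50 UMIs, or 8.13 CPM (7.56 to 8.72), 4.19 (3.80 to 4.60) and 0.471 (0.350 to 0.621). The membrane-attached stathmins therefore split: STMN3 was highest in the library in which STMN2 and STMN4 were lowest.

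Of the tubulins, TUBA1A (ENSG00000167552, chromosome 12) had 402 CPM (398 to 406), 351 (347 to 354) and 445 (441 to 449), lowest in the intermediate library. TUBB3 (ENSG00000258947, chromosome 16) had 230, 119 and 128 UMIs, or 2.42 CPM (2.12 to 2.75), 1.16 (0.962 to 1.39) and 1.21 (1.01 to 1.43). The intervals of its last 2 libraries overlapped, the one pair among the 10 genes for which neighbouring levels did. TUBB3 is named on a second row (ENSG00000198211), a readthrough of MC1R and TUBB3, which held 0 UMIs in every library. In GENCODE v29, which may differ from the annotation the counts were made with, 35.8% of the exon bases of the first TUBB3 gene lie on the same strand in that second gene. Cell Ranger, the counting tool, discards reads that match more than 1 gene, so the TUBB3 level is uncertain and its low value cannot be read as a low level in the cells.

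MAP1B (ENSG00000131711, chromosome 5) had 442 CPM (438 to 446), 451 (447 to 455) and 348 (344 to 351). GAP43 (ENSG00000172020, chromosome 3) had 191 CPM (189 to 194), 112 (110 to 114) and 89.1 (87.3 to 90.9). GAP43 stepped down in both resistant libraries, while MAP1B was lower in the fully resistant one alone. BASP1 (ENSG00000176788, chromosome 5) had 353 CPM (350 to 357), 383 (379 to 387) and 808 (803 to 814). NSG2 (ENSG00000170091, chromosome 5) had 331 CPM (327 to 335), 195 (192 to 197) and 15.7 (15.0 to 16.5). GAP43 and BASP1, both protein kinase C substrates, thus lay on opposite sides, and NSG2 had the largest gap of the genes that reached 20 CPM.

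Ratios of 2 libraries were called by size, as different at a ratio of at least 2 with at least 20 CPM in the higher library, and carry exact conditional Poisson 95% intervals. STMN4 and TUBB3 did not reach 20 CPM, so 8 of the 10 genes were open to a call in each comparison. Between fully resistant and sensitive cells, 2 of the 8 were called higher, against 5.47% of all 5342 genes open to a call, and 3 of the 8 were called lower, against 5.56%. The median log2 ratio of the 8 genes was -0.10, beside 0.10 over all genes. Because the members were chosen with earlier results of these data known, counts set beside the shares of all genes cannot test the set. This holds for all 3 comparisons.

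NSG2 was 21.1-fold lower in fully resistant than in sensitive cells (20.1 to 22.2). STMN2 was 3.64-fold lower (3.56 to 3.74) and GAP43 2.15-fold lower (2.10 to 2.20). BASP1 was 2.29-fold higher (2.26 to 2.32) and STMN3 2.24-fold higher (2.19 to 2.30). These 5 genes kept their call under all 3 other scalings tried. STMN1 had a ratio of 1.46 (1.45 to 1.47), TUBA1A one of 1.11 (1.09 to 1.12) and MAP1B one of 0.787 (0.776 to 0.798), none of them a call. Below the level limit, STMN4 was 17.25-fold lower (12.96 to 23.45) on 50 UMIs.

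Between intermediate resistant and sensitive cells, 0 of the 8 genes were called higher, against 1.74% of 5045 genes, and 0 were called lower, against 3.61%. GAP43 was 1.71-fold lower (1.67 to 1.75) and NSG2 1.70-fold lower (1.67 to 1.73). STMN3 had a ratio of 1.17 (1.14 to 1.21), BASP1 one of 1.08 (1.07 to 1.10), and STMN1 one of 1.064 (1.055 to 1.073). MAP1B had one of 1.02 (1.01 to 1.03), STMN2 one of 0.906 (0.891 to 0.921) and TUBA1A one of 0.873 (0.860 to 0.885). The log2 ratios of STMN1, STMN2, MAP1B and BASP1, between -0.14 and 0.12, changed sign when the 50% of cells with fewer cell cycle transcripts were read alone.

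Between fully and intermediate resistant cells, 1 of the 8 genes was called higher, against 4.53% of 5165 genes, and 2 were called lower, against 2.83%. NSG2 was 12.4-fold lower (11.8 to 13.1) and STMN2 3.30-fold lower (3.22 to 3.38). BASP1 was 2.11-fold higher (2.08 to 2.14), a call that was lost under each of the 3 other scalings, which gave log2 ratios down to 0.93. STMN3 fell just short of a call at 1.91 (1.86 to 1.96), while GAP43 was 1.25-fold lower (1.22 to 1.29). GAP43 thus had most of its difference between sensitive and intermediate resistant cells, whereas STMN2, BASP1, STMN3 and NSG2 had most of theirs, on the log2 scale, between intermediate and fully resistant cells. The 3 comparisons share libraries, so these steps are side by side values and not independent results. Of all genes called in this comparison 61.6% were higher, against 47.0% with TMM scaling, and the median log2 ratio of all genes moved from 0.17 to 0.02.

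**Figure D2:**
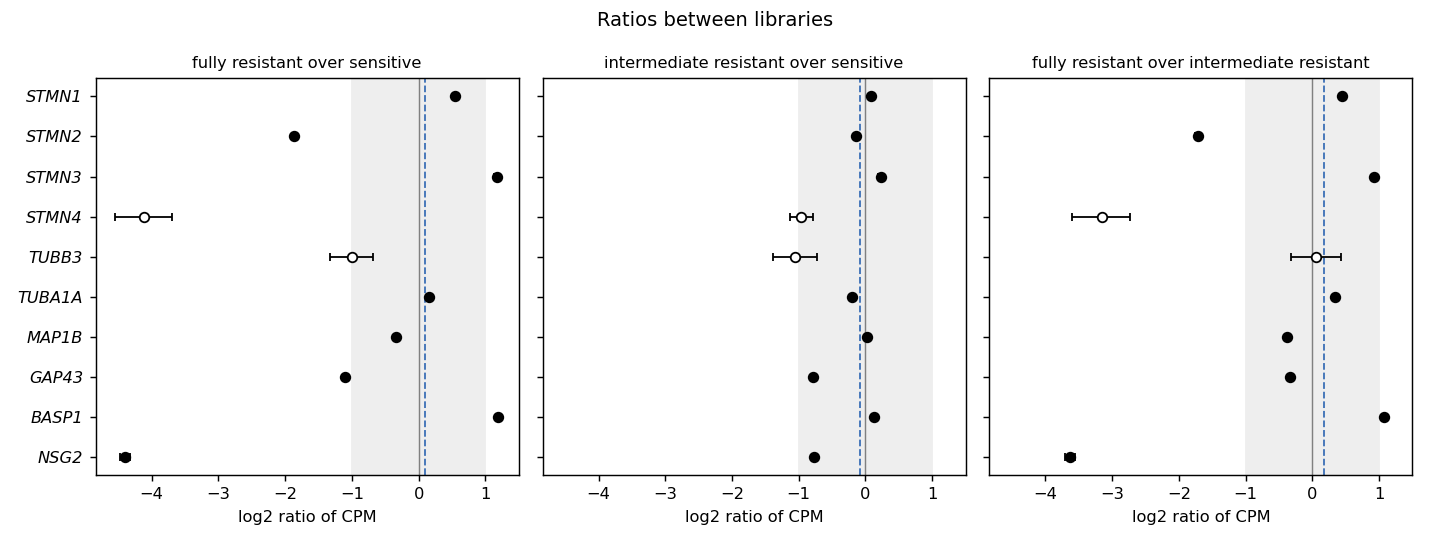
Points give the log2 ratio of CPM for each gene in the 3 comparisons, with exact conditional Poisson 95% intervals (often narrower than the point). Open points are genes under 20 CPM, the grey band holds ratios below 2-fold in either direction, and the dashed line is the median of all genes open to a call. NSG2 lies at -4.40 in the left panel and every filled point of the middle panel lies inside the band.

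The genes around each member were read for the local level on the chromosome. Each gene was set beside the 10 nearest genes on either side with at least 5 CPM, in the gene order of GENCODE v29. The 20 neighbours of NSG2 had a median log2 ratio of 0.01 between fully resistant and sensitive cells, from -1.58 to 0.96, and all 20 lay above NSG2 at -4.40. All 20 neighbours of STMN4 lay above its -4.11, and 19 of 20 lay above STMN2 and above GAP43. STMN3 at 1.17 lay above 19 of its 20 neighbours, whose median was 0.31. Between fully and intermediate resistant cells, the neighbours of STMN3 had a median of 0.52, from 0.01 to 1.59. STMN3 itself stood at 0.93 there and the median of all genes at 0.17, so the genes around STMN3 were also higher. Between fully resistant and sensitive cells, BASP1 at 1.19 lay above 16 of 20, with a neighbour median of 0.70, so the genes around BASP1 were also higher at the median. For TUBB3 the 14 neighbours, near the end of chromosome 16, had a median of -1.09, and 9 of the 14 lay below TUBB3.

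The sequence before the start site is shown for 3 genes called in the comparison of fully resistant with sensitive cells: STMN3 and BASP1, which were higher, and GAP43, which was lower. No window is shown for NSG2 and STMN2, the called genes with the largest differences, so the 3 windows do not stand for all called members. Each line gives the 250 bases before the start in the RefSeq promoter table (build GRCh38.p14), 5' to 3' on the gene's strand. Capitals mark CANNTG, the E-box core bound by basic helix-loop-helix factors; the core reads the same on both strands. The windows are chr20:63652767-63653016 on the minus strand for STMN3, chr5:17216573-17216822 on the plus strand for BASP1 and chr3:115623260-115623509 on the plus strand for GAP43.
STMN3: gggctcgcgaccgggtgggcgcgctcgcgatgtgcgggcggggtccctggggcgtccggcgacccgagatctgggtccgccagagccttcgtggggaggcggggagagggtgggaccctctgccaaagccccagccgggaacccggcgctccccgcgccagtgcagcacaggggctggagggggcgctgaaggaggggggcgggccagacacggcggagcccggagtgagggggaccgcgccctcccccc
BASP1: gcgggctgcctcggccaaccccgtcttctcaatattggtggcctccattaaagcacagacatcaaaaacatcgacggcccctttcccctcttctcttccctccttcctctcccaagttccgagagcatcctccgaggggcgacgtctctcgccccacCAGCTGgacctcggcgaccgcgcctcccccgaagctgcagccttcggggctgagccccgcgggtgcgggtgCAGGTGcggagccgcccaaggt
GAP43: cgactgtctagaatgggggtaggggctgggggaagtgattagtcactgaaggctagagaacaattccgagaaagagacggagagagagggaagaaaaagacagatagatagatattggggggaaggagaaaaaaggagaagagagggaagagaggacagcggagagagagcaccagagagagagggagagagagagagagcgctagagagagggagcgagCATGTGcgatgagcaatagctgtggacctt
STMN3 held 0 matches to CANNTG, BASP1 2 and GAP43 1, and 61.8% of the 35116 windows of the same length in the table held at least 1. The GC box core GGGCGG, searched on both strands, was found 2 times before STMN3, 1 time before BASP1 and 0 times before GAP43, against 42.6% of all windows with at least 1. TATAAA, also searched on both strands, was in none of these 3 windows and in 10.7% of all. GC content was 78% for STMN3, 65.6% for BASP1 and 51.6% for GAP43. These matches describe letters only, and the data hold no binding measurement.

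Within single cells, levels were read after thinning every cell at random to 5000 UMIs, so that depth could not set the share of cells with a UMI. NSG2 was found in 75.9% of sensitive (74.7 to 77.0, exact binomial), 60.2% of intermediate resistant (59.0 to 61.4) and 7.16% of fully resistant cells (6.53 to 7.82). STMN2 was found in 65% (63.7 to 66.3), 56.6% (55.4 to 57.9) and 23.4% (22.4 to 24.5). GAP43 was found in 58.0%, 39.1% and 32.8% of cells. Fewer cells thus held each of these 3 transcripts in the fully resistant library. BASP1 was found in 78.7%, 77.9% and 93.3%, and STMN3 in 33.6%, 38.4% and 57.8%. STMN1 was found in 98.1%, 97.7% and 99.5% of cells, TUBA1A in 82.7%, 76.4% and 82.9%, and MAP1B in 87.5%, 85.6% and 77.0%. STMN4 was found in 4.17%, 2.26% and 0.269% of cells and TUBB3 in 1.20%, 0.620% and 0.553%. Without thinning, STMN2 was found in 88.8%, 83.2% and 41.7% and NSG2 in 94.0%, 90.8% and 18.5%. A single line holds no cell type that should lack these genes, so free RNA was read in barcodes with 10 to 100 UMIs. The mean low barcode held 30.7, 41.9 and 43.3 UMIs, and such an amount in every cell would carry at most 0.583% of the UMIs of any of the 10 genes.

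Among members with at least 50 CPM in the library read, STMN2 was the most uneven from cell to cell. Its squared coefficient of variation beyond counting, which is 0 when all cells share 1 level, was 0.808 in sensitive, 1.32 in intermediate resistant and 4.33 in fully resistant cells. Those values stood above 98.8%, 98.5% and 99.8% of the genes with at least 50 CPM in the same library, whose medians were 0.0700, 0.110 and 0.0967. The median fully resistant cell had 0 STMN2 UMIs of 5000 while the highest had 26, as against 22 in sensitive cells. The 10% of cells richest in STMN2 held 36.9%, 43.5% and 67.6% of its thinned UMIs. A few cells of the fully resistant library therefore still carried STMN2 at a level seen in the top cells of the sensitive one.

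Other members at that level were spread more evenly. STMN3 had squared coefficients of 0.0307, 0.0583 and 0.101, at percentiles 21.4, 21.8 and 52.1 of the genes compared. STMN1 had 0.120, 0.163 and 0.181. NSG2 had 0.152 and 0.154 in the first 2 libraries. No coefficient was computed for NSG2 in the fully resistant library, where it stood at 15.7 CPM, below the level required. Its evenness there was therefore not compared, and 7.16% of those cells held at least 1 NSG2 UMI and 0.79% at least 2. The highest NSG2 cells held 10, 7 and 4 UMIs of 5000. NSG2 thus had no cells in the fully resistant library near the top of the sensitive one, which STMN2 did. GAP43 had 0.224, 0.529 and 0.507 and BASP1 0.195, 0.345 and 0.323, with 36.4% of fully resistant cells holding at least 5 BASP1 UMIs against 5.52% of sensitive cells.

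**Figure D3:**
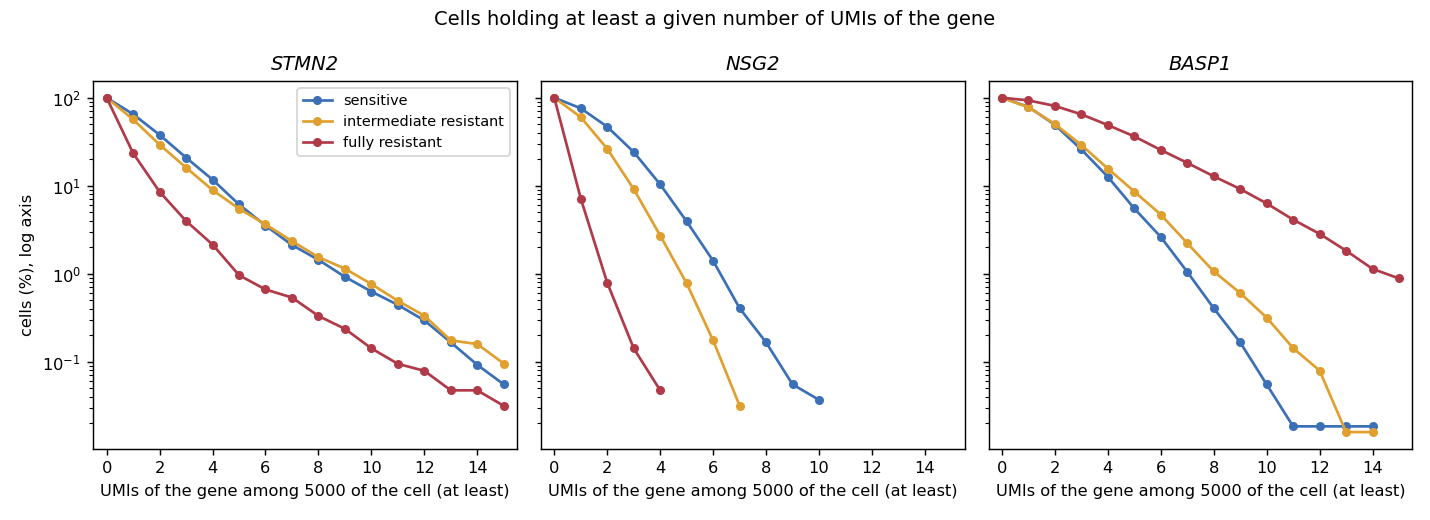
Lines give the percentage of cells (log axis) that held at least a given number of UMIs of STMN2, NSG2 or BASP1 after each cell was thinned to 5000 UMIs, in 3 libraries. At 5 UMIs the STMN2 lines stand at 6.13%, 5.49% and 0.964%, and the fully resistant line runs on to high counts for STMN2 but ends at 4 for NSG2.

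The stathmins changed in proportion as well as in level. STMN1 made up 74.1% of all stathmin UMIs in sensitive (73.9 to 74.3, exact binomial), 76.1% in intermediate resistant (75.9 to 76.3) and 85.5% in fully resistant cells (85.4 to 85.7). STMN2 made up 19.6% (19.4 to 19.8), 17.1% (16.9 to 17.3) and 4.26% (4.17 to 4.35), and STMN3 5.74%, 6.51% and 10.2%. The summed stathmin level was 1430, 1483 and 1807 CPM, so the family as a whole was not lower where STMN2 was. A 3' tag count is not scaled to length, and each share is compared with the same gene's share in the other libraries only. TUBA1A made up 14.8%, 14.1% and 18.7% of alpha tubulin UMIs, and TUBB3 made up 0.156%, 0.0743% and 0.0785% of beta tubulin UMIs. TUBB4B, a beta tubulin found in many tissues, went from 13.9% to 17.9% and 24.4% of the beta tubulins. Tubulin genes have near-identical coding sequences, so reads may be split between copies or lost, and these shares are uncertain to that extent.

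**Figure D4:**
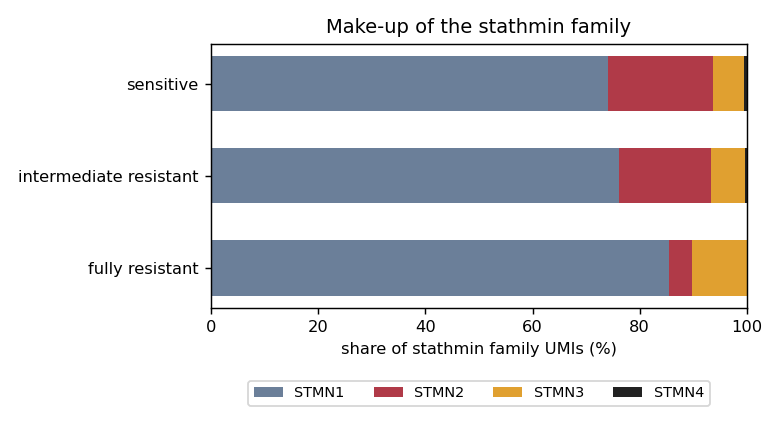
Bars split the UMIs of the 4 stathmin genes in each library into shares (%, adding to 100). STMN2 goes from 19.6% of the family in sensitive cells to 4.26% in fully resistant cells, and STMN4 is at 0.0261% there.

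Cells were also ordered by the percentage of their UMIs in 90 named genes of S phase and of G2 and M phase, on 91 gene rows. The 20% of cells with the most (high-cycle cells) were compared with the 20% with the least (low-cycle cells) in each library. This score is a range and not a cell type. Its median was 1.09% in the high-cycle and 0.250% in the low-cycle cells of the sensitive library, 1.18% and 0.129% in the intermediate resistant and 1.44% and 0.148% in the fully resistant one. High-cycle cells also had more UMIs, with medians of 17979 and 13551 in the sensitive library. STMN2 was 2.21-fold lower in high-cycle than in low-cycle cells of the sensitive library (229 against 507 CPM), 3.50-fold lower in the intermediate resistant one (167 against 585 CPM) and 2.60-fold lower in the fully resistant one (60.8 against 158 CPM). BASP1 ran the other way, 2.22-fold, 2.92-fold and 1.54-fold higher in high-cycle cells. STMN1 was 1.19-fold, 2.13-fold and 1.45-fold higher there and MAP1B 1.30-fold, 1.72-fold and 1.17-fold higher. TUBA1A differed little in the first 2 libraries, with ratios of 0.963 and 1.02, and stood at 0.749 in the fully resistant one. NSG2 had ratios of 1.13, 1.08 (1.00 to within rounding when cells were split at 50%) and 1.15, and GAP43 ratios of 1.18, 1.25 and 1.48. STMN4 had 180 UMIs in the high-cycle and 164 in the low-cycle cells of the sensitive library, a ratio of CPM of 0.853 with an interval that includes 1 (0.687 to 1.06). In the intermediate resistant library it had 61 and 178 UMIs, a ratio of 0.2995 (0.2201 to 0.4027), and in the fully resistant one 3 and 32 UMIs, a ratio of 0.0760 (0.0149 to 0.243).

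**Figure D5:**
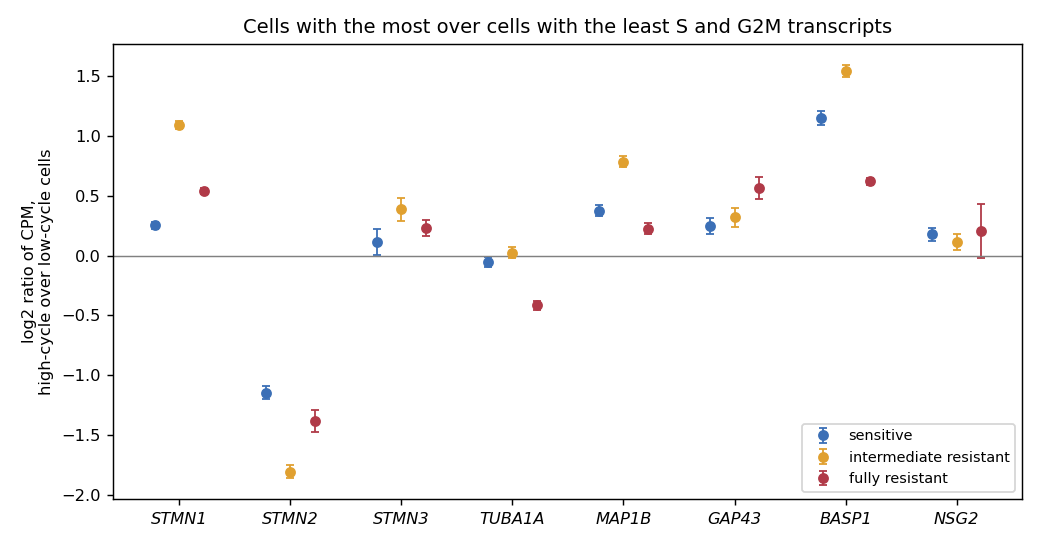
Points give the log2 ratio of CPM in high-cycle over low-cycle cells (the 20% with the most and the 20% with the least UMIs in S and G2M genes), for the 8 genes at 20 CPM or more in some library, with exact conditional Poisson 95% intervals. STMN2 lies below 0 in all 3 libraries, from -1.81 to -1.15, and BASP1 lies above 0, from 0.62 to 1.54.

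The differences between libraries were read again within low-cycle and within high-cycle cells. These ranges are ranks within a library, so the score itself was not held equal between libraries. Low-cycle medians were 0.250% in the sensitive and 0.148% in the fully resistant library, and high-cycle medians were 1.09% and 1.44%. Among low-cycle cells, NSG2 was 20.8-fold lower in the fully resistant than in the sensitive library and among high-cycle cells 20.4-fold lower. STMN2 was 3.20-fold and 3.77-fold lower in the same order. GAP43 was 2.42-fold lower in low-cycle cells and 1.93-fold lower, short of a call, in high-cycle cells. BASP1 was 2.97-fold higher in low-cycle and 2.06-fold higher in high-cycle cells, and STMN3 2.06-fold and 2.24-fold higher. The 5 genes thus kept their direction at both ends of the cycle score. STMN1 differed most from its overall value between intermediate resistant and sensitive cells, with ratios of 0.666 in low-cycle and 1.19 in high-cycle cells.

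The STMN2-rich cells were then described, with a limit set after the values had been seen: at least 5 STMN2 UMIs of 5000. There were 332 such sensitive cells, or 6.13% (5.51 to 6.80), 345 intermediate resistant cells, or 5.49% (4.94 to 6.08), and 61 fully resistant cells, or 0.964% (0.738 to 1.24). Another 303, 217 and 75 cells held 4 UMIs, just under the limit, and 141, 116 and 19 cells held exactly 5. STMN2-rich cells carried fewer cell cycle transcripts than cells with 0 STMN2 UMIs, with medians of 0.338% against 0.731% in sensitive, 0.136% against 0.700% in intermediate resistant and 0.155% against 0.741% in fully resistant cells. Of the STMN2-rich cells 77.4%, 89.6% and 88.5% lay among the 50% of cells with the lower score in their library. Their median UMI totals were 13533 against 16644, 15740 against 16015 and 12155 against 16248. STMN2 chose these cells, so its own level in them is no result, and no test was made of any other gene.

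In the fully resistant library the STMN2-rich cells held more of several other neuronal transcripts, which were picked after their values were seen. TUBA1A stood at 1030 CPM in them against 408 CPM in cells with 0 STMN2 UMIs, a ratio of 2.52. The same ratio was 1.29 in sensitive and 1.21 in intermediate resistant cells. NSG2 stood at 58.7 against 13.4 CPM, a ratio of 4.39 on 50 UMIs, but at ratios of 0.955 and 1.09 in the other libraries. DCX, a microtubule-binding protein of migrating neurons, stood at 153 against 24.7 CPM in fully resistant cells and was also higher in the other libraries, with ratios of 2.58 and 3.52. TUBB2B, a beta tubulin of developing neurons, had ratios of 1.79, 1.72 and 2.68, and MAPT, the axonal protein tau, ratios of 1.25, 2.11 and 2.81. GAP43 showed little of this, at ratios of 1.00, 0.948 and 1.35. STMN3 had ratios of 0.945, 0.783 and 0.951, so STMN2-rich cells did not hold more STMN3. Other genes were lower in STMN2-rich cells of some or all libraries. The alpha tubulin TUBA1B had ratios of 0.86, 0.51 and 0.51, BASP1 0.877, 0.573 and 1.335, and MAP1B 1.07, 0.771 and 1.78. In sensitive and intermediate resistant cells, the microtubule-associated MAP1A had ratios of 0.629 and 0.518 and the kinesin KIF1A 0.797 and 0.485.

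Correlations over cells were small in size and are given as descriptions within a library. For the 7 genes with at least 50 CPM in all libraries, the 3 most alike genes were found among 1961 genes by the lowest of the 3 within-library Pearson correlations of log2(thinned UMIs + 1). STMN1 was most like HMGB1, a chromatin protein, TUBA1B, an alpha tubulin, and PRDX1, a peroxide-reducing enzyme, with lowest correlations of 0.28 to 0.30. BASP1 was most like UBE2S and PTTG1, genes of mitotic exit and chromosome separation, and TUBB4B, at 0.21 to 0.25. STMN2 was most like TUBB2B, ACTG1 (a cytoplasmic actin) and PRPH (the neuronal filament protein peripherin), at 0.12 to 0.13. TUBA1A was most like STMN1 and TUBB at 0.16 and EIF4A1 at 0.14, and MAP1B was most like SOX11 at 0.12, with MARCKS and HNRNPH1 at 0.09. The lists for GAP43 (HSP90AA1, CALM2 and PRDX1) and STMN3 (PSMA7, RANBP1 and PTMA) did not pass 0.09. Between members, STMN1 and BASP1 had correlations of 0.14, 0.22 and 0.30 in the 3 libraries and STMN1 and STMN2 had -0.03, -0.19 and 0.02. STMN2 and BASP1 stood at -0.04, -0.10 and 0.12. Small values could still be extreme among the 1921780 pairs of the 1961 genes. STMN1 and BASP1 stood at percentiles 99.68, 99.74 and 99.88 of those pairs, and STMN1 and STMN2 at 8.845, 0.4298 and 59.99. STMN2 and BASP1 stood at percentiles 5.097, 2.343 and 99.09.

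Related genes were read from lists written by function, chosen with earlier results of these data known. Of all genes, 5.47% were called higher and 5.56% lower between fully resistant and sensitive cells. The shares were 1.74% and 3.61% between intermediate resistant and sensitive cells, and 4.53% and 2.83% between fully and intermediate resistant cells. Counts in these short lists were not tested against those shares, and single calls are descriptions only. Of 35 further growth cone and axon growth proteins, 22 reached 20 CPM in the comparison of fully resistant with sensitive cells, of which 0 were higher and 5 lower. The farthest were GNAO1, the G protein subunit abundant in growth cones, 5.99-fold lower, the axonal adhesion molecule CNTN1, 5.29-fold lower, GPM6B, a membrane glycoprotein, 3.82-fold lower, and the actin-binding protein ABLIM1, 2.98-fold lower. Their median log2 ratio was -0.09, beside 0.10 for all genes, and 17 of the 22 were not called. Between intermediate resistant and sensitive cells 1 of 22 was lower, PFN2, an actin-binding profilin, at 2.01-fold, and 0 were higher. Between fully and intermediate resistant cells 1 of 20 was lower, CNTN1 at 6.27-fold, and 0 were higher.

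Of 28 microtubule-associated and plus-end proteins, 16 reached the level between fully resistant and sensitive cells, with 1 higher and 2 lower. The shares of all genes were 5.47% and 5.56%. DCX was 2.20-fold higher, whereas MAP2, a protein of dendrites, was 2.45-fold lower and MAP4, found in most tissues, 2.23-fold lower. DCX and MAP6, which stabilises microtubules, were 2.88-fold and 2.04-fold higher in fully than in intermediate resistant cells, the 2 called higher of 15, with 0 lower. Of all genes 4.53% were higher and 2.83% lower there. Between intermediate resistant and sensitive cells MAP1LC3A, an autophagy protein, was the 1 lower of 14, at 2.21-fold, and 0 were higher, against 3.61% and 1.74% of all genes. None of the 3 alpha and 5 beta tubulins at that level was called in any comparison, nor was any of the 6 or 7 other tubulins and folding cofactors. The alpha tubulins TUBA1B and TUBA1C had ratios of 0.836 and 0.797 between fully resistant and sensitive cells, and TUBB4B, with 1.74, was the beta tubulin with the largest difference.

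Among 18 axonal transport motors and their partners, 1 of 13 was lower between fully resistant and sensitive cells, and 0 were higher. The lower gene was the kinesin KIF21A, at 2.57-fold, and 5.56% of all genes were lower in that comparison. The kinesin KIF5B was 2.75-fold lower in intermediate resistant than in sensitive cells, 1 of 12, where 3.61% of all genes were lower. Between the resistant libraries 0 of 13 were called, where 4.53% of all genes were higher and 2.83% lower. NSG1, a close relative of NSG2, had 18.1 CPM in sensitive, 25.8 CPM in intermediate resistant and 0.791 CPM in fully resistant cells. It was 32.5-fold lower in fully than in intermediate resistant cells, the 1 gene called of 3 in its list. Both NSG genes were thus at their lowest in the fully resistant library, while between intermediate resistant and sensitive cells NSG1 had a ratio of 1.42 and NSG2 one of 0.588, neither a call. The endosomal GTPase RAB4A stood at 163, 129 and 82.9 CPM, 1.97-fold lower in fully resistant than in sensitive cells and just short of a call.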

How the data were processed

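The data were UMI counts per gene and barcode from 3 libraries of Kelly cells. The authors deposited unfiltered count matrices with 32738 gene rows and 737280 barcodes, and used bcl2fastq and Cell Ranger with hg19, per the submitters' processing notes, with no version given there. All per-sample columns were used, leaving out 0.

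Cells were called by the stated limits. UMIs were summed over the cells of a library and divided by its total (CPM). Doublets were kept and no caller was run. The calls and intervals were tested on simulated counts that held counting error only, with planted changes larger than 2-fold. That test does not cover differences between cultures or ratios close to 2. A gene with 0 UMIs was set to 3 UMIs in a ratio. Python 3.11.15 with numpy 2.4.6, scipy 1.17.1 and pandas 2.3.3 was used, and R 4.3.3 with edgeR 4.0.16 for the TMM factors of an alternative. All gene-wise intervals are exact at 95%. Of the gene rows, 31111 were matched by identifier to GENCODE v29, used for gene order and exon overlap only, since its build is not that of the files.

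Named genes were all 10 members, up to 4 genes per list and comparison with the greatest absolute log2 ratio at 20 CPM or more, the 3 genes most like each member at 50 CPM or more, and MYCN and ALK as a check of the line. SOX10 and the genes described in STMN2-rich cells, were added after their values were seen. A list of glial markers and certain named genes are not reported here. The members and lists were chosen with earlier results of these data known. Alternatives were other scalings (without mitochondrially encoded and ribosomal protein genes, TMM, median of ratios), other limits on cells, thinned cells, the 50% of cells with fewer cell cycle transcripts, no minimum level and a ratio of 1.5.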

Additional observations from a re-analysis of the deposited data

How the results depend on the processing

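With no minimum CPM, 1 member (TUBB3, lower) was called between intermediate resistant and sensitive cells where 0 were otherwise, and with a ratio of 1.5 the number was 2 (GAP43 and NSG2, both lower). Of all genes open to a call there, 1810 of 22972 were lower with no minimum and 513 of 5045 with a ratio of 1.5. In the main setting 182 of 5045 were lower. No other alternative changed a count of called members by more than 1.5 times. Without a minimum CPM the count went from 5 to 7 between fully resistant and sensitive cells, by STMN4 and TUBB3, and from 3 to 4 between fully and intermediate resistant cells, by STMN4. Over all genes this looser rule called 3021 higher and 2510 lower of 23086, and 2281 and 2117 of 23282, in the same order. The main setting called 292 and 297 of 5342, and 234 and 146 of 5165. The 3 other scalings gave 2 in place of 3 in the last comparison, without BASP1. Over the 8 alternatives that give a log2 ratio, NSG2 ranged from -4.49 to -4.33, STMN2 from -1.96 to -1.73, GAP43 from -1.20 to -1.10, STMN3 from 1.07 to 1.17 and BASP1 from 1.10 to 1.33 between fully resistant and sensitive cells. TUBB3, on 119 and 128 UMIs, changed sign under 4 alternatives between fully and intermediate resistant cells. Of all genes called between fully resistant and sensitive cells 49.6% were higher, against 40.3% with TMM. Splitting cells at 50% in place of the outer 20% ranges took the cell cycle log2 ratio of NSG2 in intermediate resistant cells from 0.11 to -0.00 and changed the sign of no other whose interval excluded 0. With a limit of 10 STMN2 UMIs, chosen after seeing the data, STMN2-rich cells had median S and G2M percentages of 0.136, 0.0977 and 0.162. No paired analysis was possible because each group has 1 library.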
